A study of Mus musculus with 33 samples.

Results

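Donor monocytes recovered from the inflamed small intestine were compared with donor monocytes recovered from the liver of recipients that had undergone the same surgery. The comparison rested on 7 of the 33 libraries of the series, 5 from the small intestine and 2 from the liver of manipulated recipients, and on all 57 panel genes that had a value in every library. These libraries were chosen by organ and treatment as labelled, and no measured value entered the choice. Donor cells were bone marrow monocytes of C57BL/6 wild-type mice that had not been operated, and all recipients were C57BL/6 mice lacking Ccr2. Manipulated recipients had undergone an operation 1 day before the transfer, in which the small intestine was laid out and pressed with forceps to inflame the gut wall, and cells were sorted 1 day after the transfer. Per the methods of the study, these mice were also anaesthetised and received Novalgin, a painkiller, in the drinking water. Recipients without surgery, called non-manipulated, gave 4 libraries from small intestine and 3 from liver at the same time after transfer and served as the background comparison. The study reported no gut inflammation after sham surgery, in which the abdomen was opened and the gut was not handled. None of the 33 libraries came from sham-operated recipients. In transcripts, gut handling, anaesthesia and drug therefore cannot be told apart between the 2 kinds of recipient. Small intestine and liver of manipulated recipients had both been exposed to anaesthesia and drug, whereas the handling was applied to the small intestine.

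Monocytes are short-lived blood leukocytes that leave the bone marrow through the chemokine receptor CCR2 and become macrophages in tissues. In the healthy gut wall they replace the resident macrophages throughout life, and they turn into cells that tolerate food and bacteria and release the anti-inflammatory cytokine IL-10. During inflammation newly arrived monocytes release cytokines and chemokines that act on neutrophils, lymphocytes and further monocytes, whereas the liver holds a resident macrophage population of its own, the Kupffer cells.

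Each library was made from 100 sorted cells and read by nCounter, an assay in which a barcoded probe pair binds 1 stretch of each target and the barcodes are counted. So few cells required the cDNA to be amplified with gene-specific primers before the probes were added, so unequal amplification is part of the spread between libraries and levels are not set against each other between genes. Levels are given as log2 of the normalised count plus 1, where the count was divided by a size factor from the house-keeping genes Actb, Gapdh and Rpl19. A difference of 1 on this scale is a doubling, and folds are on the same scale. Summed counts per library ranged from 925869 to 1574105 in small intestine and from 1342165 to 1458379 in liver of manipulated recipients, and every panel gene exceeded the negative control probes in all 7 libraries. Probes for Il23a, Mrc1 and Retnla lay under 3 times that background in both livers, so their levels there are close to the lowest that could be read. The study describes its profiled donor-derived cells of the small intestine as gated on CD11b, CD11c and CD64, and counted donor monocytes of all organs by flow cytometry as positive for CD64, CD11b and Ly6C. Itgax, which encodes CD11c, Fcgr1, which encodes CD64, and Ly6c1, which encodes a Ly6C chain, are therefore not taken as independent of the sort. Of the monocyte markers on the panel, Ccr2 and Chil3 had levels of at least 12.55 in all 7 libraries, whereas Ly6c1 ran from 9.53 to 15.82 in small intestine and was 10.25 and 11.94 in liver. The panel held no marker of Kupffer cells, neutrophils, lymphocytes or of epithelial, liver parenchymal and stromal cells among the lists used, so their RNA was not tested. The gut was dissociated with EDTA and collagenase and the liver with collagenase, so organ and dissociation cannot be told apart. Because 100 cells were pooled, fewer cells expressing a gene and less RNA per cell cannot be told apart in any of these results.

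Monocytes in the inflamed small intestine carried more transcript for a neutrophil chemoattractant, a monocyte chemoattractant, a pair of pro-inflammatory cytokine genes and the anti-inflammatory cytokine Il10 than monocytes in the liver of manipulated recipients. Cxcl1, Il10, Il23a, Il6 and Ccl2 passed an adjusted p of 0.05 (limma fit over all 33 libraries, two-sided, Benjamini-Hochberg over 57 genes). All 5 were higher in small intestine, which is 8.77% of the genes tested, and 0% were lower. At an unadjusted p under 0.05 there were 9 genes. The median difference over the 57 genes was 0.06, with 30 genes above 0 and 27 below. In 13 genes (22.8%) every small intestinal library lay above both liver libraries, and in 3 genes (5.26%) every one lay below. The 2 liver libraries limit the comparison, and removal of liver 1 left 2 calls, Cxcl1 and Il10, under the assumption that the remaining liver library varies like the other groups.

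**Figure D1:**
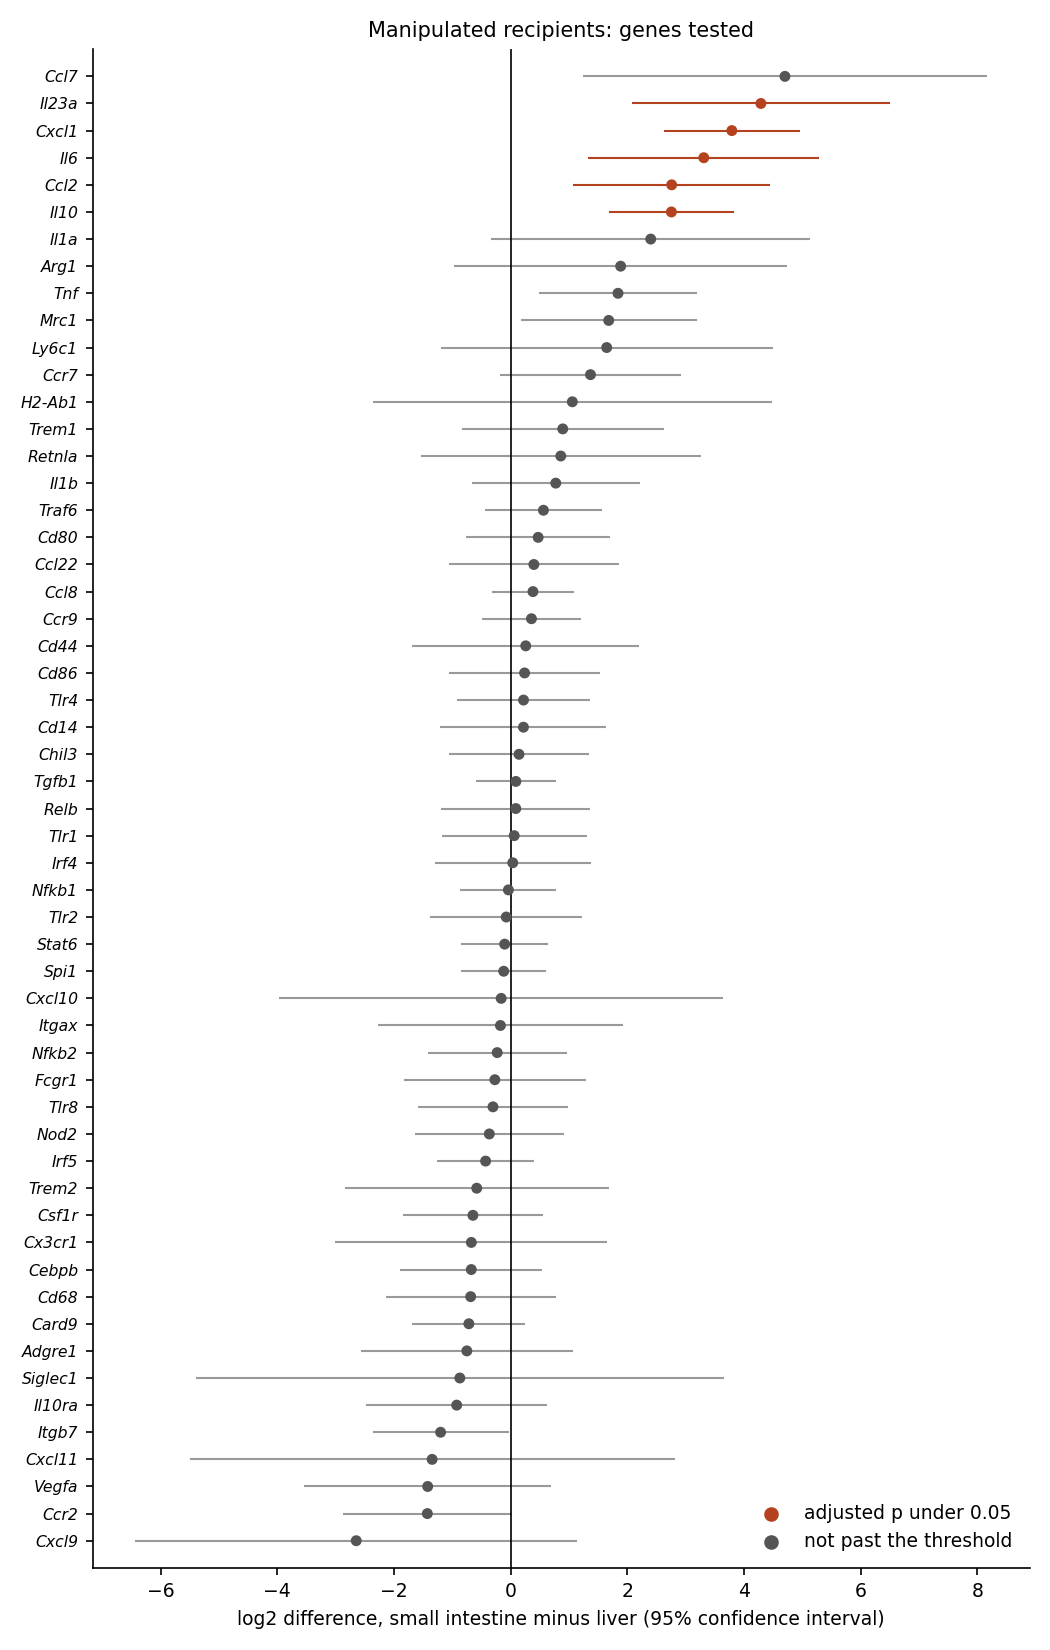
Difference between small intestine and liver of manipulated recipients for 55 of the 57 genes, on the log2 scale, with points for the fitted difference and lines for its 95% confidence interval. Red marks the 5 genes with an adjusted p under 0.05, all of them to the right of 0, and the interval of Ccl7, the topmost gene, is among the widest.

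Cxcl1 encodes a chemokine that attracts neutrophils through CXCR2. Its level was 11.48, 11.06, 12.66, 12.12 and 11.48 in small intestine 1 to 5, against 8.47 and 7.47 in liver 1 and 2. The lowest small intestinal library thus lay more than 2 units above the higher liver. The difference was 3.79 ± 0.56 (SE), or 13.9-fold (adjusted p = 2.88e-05). It was 9.77-fold to 19.7-fold when each library was left out in turn, with a call each time, and 2.80 among libraries deposited without a lane multiplier (small intestine 1 and 2 against liver 1) and 4.62 among the others.

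Ccl2 and Ccl7 encode chemokines that bind CCR2 and draw monocytes. Ccl2 stood at 14.48, 14.41, 14.94, 15.02 and 14.69 in small intestine, against 10.36 and 13.53 in liver. The small intestinal libraries were within 0.61 of each other while the 2 livers were 3.17 apart. The fitted difference was 2.76 ± 0.82 (adjusted p = 0.0287), a 6.78-fold change that depended on the liver library used. It was 1.18 (2.26-fold, adjusted p = 0.628) without liver 1 and 4.35 (20.4-fold, adjusted p = 0.00485) without liver 2. Leaving out small intestine 3, 4 or 5 also moved the adjusted p past the threshold, to between 0.0535 and 0.0573. Ccl7 showed the same split between livers, at 14.53, 12.61, 14.92, 14.90 and 13.67 in small intestine against 7.56 and 11.28 in liver. Its difference of 4.70 ± 1.68 was the largest of all 57 and did not pass (adjusted p = 0.0803). Ccl7 was called higher in 4 of 22 alternative settings, among them DESeq2 under both of its scalings, and in 0 of 7 fits with a library left out.

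The remaining 5 chemokines of the list of 8 did not pass with limma, and DESeq2 called Cxcl9 lower under both of its scalings (lowest adjusted p = 0.0128). Cxcl9, Cxcl10 and Cxcl11 encode ligands of CXCR3 that interferon-gamma induces and that attract T cells. Cxcl9 was 7.35, 5.92, 6.59, 6.71 and 6.33 in small intestine, against 6.49 and 11.96 in liver. Among these libraries liver 2 alone was high, and 4 of the 5 small intestinal ones lay under 3 times background. Non-manipulated recipients had 12.07, 11.60 and 9.32 in liver and 10.89, 11.72, 6.72 and 12.44 in small intestine. Liver 2 was thus within their range for Cxcl9, and liver 1 was below it. Liver 2 was also 5.73 units above liver 1 in Cxcl11 and 2.46 above it in Cxcl10, and the adjusted p was at least 0.579 for all 3 genes. Ccl22, a ligand of CCR4 on regulatory T cells, differed by 0.40 ± 0.71, and Ccl8, a further monocyte chemokine, by 0.38 ± 0.34. The chemokine list of 8 thus held 2 higher and 0 lower genes, where 8.77% of all genes were called higher and 0% lower. Its median difference was 0.39, beside 0.06 over all genes.

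**Figure D2:**
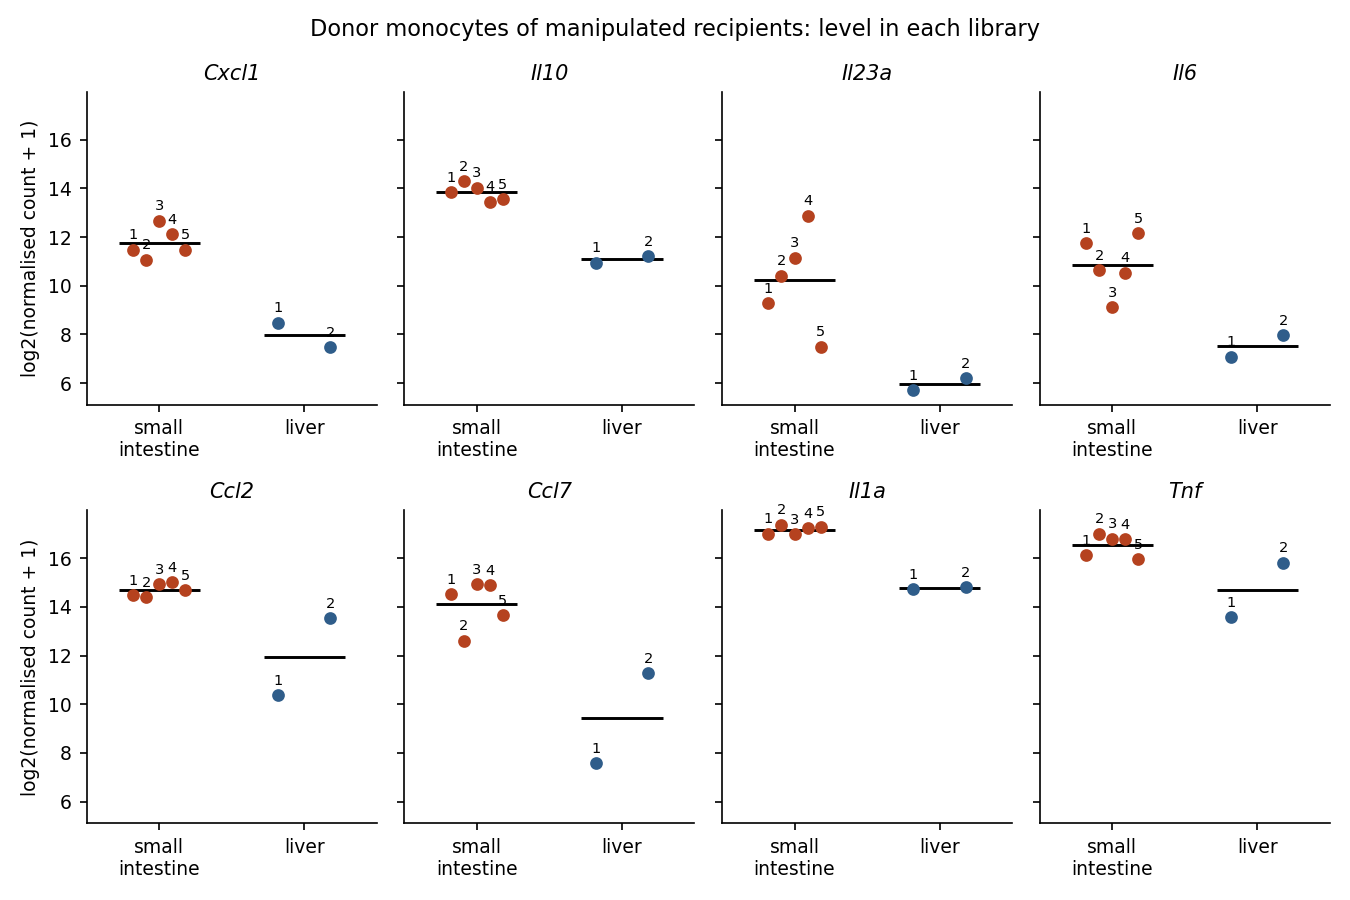
Level in each library of manipulated recipients, as log2 of the normalised count plus 1, with small intestine in red, liver in blue, library numbers beside the points and a line at the group mean. All small intestinal points lie above both liver points in each of the 8 genes; Ccl2, Ccl7 and Tnf show liver 1 below liver 2.

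All 5 measured pro-inflammatory cytokines were above both livers in every small intestinal library, and 2 of them, Il6 and Il23a, passed the threshold, where over all genes 22.8% lay above both livers in this way and 8.77% were called. IL-6 is an acute-phase cytokine that also acts on T cells. Its gene was read at 11.75, 10.63, 9.11, 10.53 and 12.15 in small intestine, against 7.08 and 7.97 in liver. The difference was 3.31 ± 0.96, or 9.93-fold (adjusted p = 0.0287), and the call was lost without small intestine 1 or 5 or without either liver (adjusted p between 0.0585 and 0.326). Il23a encodes the p19 subunit of IL-23, a cytokine that sustains IL-17-producing lymphocytes. It was read at 9.28, 10.41, 11.15, 12.87 and 7.49 in small intestine, against 5.70 and 6.20 in liver. The counts behind these levels were 602, 981, 1330, 4338 and 189 in small intestine, against 64 and 74 in liver, where the background was 35.5 and 43.9 counts. Il23a had the widest spread among small intestinal libraries of the 5 genes that passed, and the groups still did not overlap. Its difference was 4.29 ± 1.07, or 19.6-fold (adjusted p = 0.00963). It was 31.5-fold without small intestine 5 and 12.4-fold without small intestine 4, and the call was lost without liver 1 (16.4-fold, adjusted p = 0.181) and without small intestine 3 and 4 together (8.65-fold, adjusted p = 0.0570).

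Il1a, Il1b and Tnf encode IL-1α, IL-1β and TNF, cytokines that act early in inflammation on endothelium and fibroblasts. Il1a was 16.997, 17.374, 16.987, 17.223 and 17.301 in small intestine, against 14.731 and 14.817 in liver. The groups were separated by more than 2 units, with a range of 0.39 within the small intestine, yet the adjusted p was 0.391 for a difference of 2.40 ± 1.33. The shared variance came from all 11 groups, and bone marrow of manipulated recipients alone had an SD of 3.24 in this gene. In a fit of the 2 compared groups only, the adjusted p for Il1a was 0.00350, while Ccl2, Il23a and Il6 no longer passed in that fit. Tnf was 16.13, 17.01, 16.80, 16.78 and 15.96 in small intestine, against 13.57 and 15.82 in liver, and differed by 1.84 ± 0.66 (adjusted p = 0.0803). Liver 2 nearly reached the small intestine in Tnf, and without it the difference was 2.96 (adjusted p = 0.0161). Il1b was the closest between organs, at 16.42 to 16.93 in small intestine against 15.95 in both livers, with a difference of 0.77 (95% confidence interval -0.67 to 2.21). The median over the 5 cytokines was 2.40.

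Both Cxcl1 and Il6 are textbook targets of the transcription factor NF-kappa-B, whose binding motif was therefore looked up in their promoters as context. Of the 5 genes that passed, 2 (this pair) had an entry in the promoter table, and Il10, Il23a and Ccl2 were not searched. The letters searched were GGGANTTTC, the first 9 of a common form of the motif, on both strands. RefSeq promoter windows of build GRCm38.p6 (250 bases before to 50 after the start of a gene) matched 37 of the 57 genes, of which 4 held the letters, namely Cxcl1, Il6, Cxcl9 and Nfkb2. They were present in 1.11% of the 32851 windows of the table, and a match describes letters and not binding. The 100 bases before the start are shown on the plus strand with the match in capitals.
Cxcl1, chr5:90891145-90891244: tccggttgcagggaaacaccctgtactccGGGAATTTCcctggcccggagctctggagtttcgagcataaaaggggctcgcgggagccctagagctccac
Il6, chr5:30013014-30013113: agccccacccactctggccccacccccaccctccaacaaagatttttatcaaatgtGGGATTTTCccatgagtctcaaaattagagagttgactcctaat
The match lay 71 to 63 bases before the start of Cxcl1 and 44 to 36 bases before that of Il6. Transcripts of the NF-kappa-B subunits on the panel, Nfkb1, Nfkb2 and Relb, differed between organs by -0.04, -0.23 and 0.09 and did not pass, with both organs overlapping in all 3. These are transcript levels, and activity of the factor was not measured.

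Il10 was the single gene of the 9 in the regulatory and alternative activation list that passed. IL-10 is the cytokine that restrains macrophages in the gut wall. Its gene was read at 13.83, 14.30, 14.03, 13.45 and 13.56 in small intestine, against 10.94 and 11.21 in liver. Spread within either organ was under 1 unit and the gap between them over 2. The difference was 2.76 ± 0.52, or 6.76-fold (adjusted p = 0.000529). It stayed between 6.16-fold and 7.42-fold with each library left out, with a call each time, and was 3.12 among libraries without a lane multiplier and 2.47 among those with one. Il10ra, a subunit of its receptor, differed by -0.92 ± 0.75.

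The other 8 genes of the list did not pass with limma, although Mrc1 and Retnla, like Il10, were above both livers in every small intestinal library. DESeq2 called Mrc1 higher under both of its scalings and Arg1 under house-keeping factors. Tgfb1, a further anti-inflammatory cytokine, was one of the most even genes, at 15.89 to 16.46 in small intestine against 16.05 and 16.21 in liver, and its interval ran from -0.59 to 0.77. Chil3 and Stat6 differed by 0.14 ± 0.58 and -0.10 ± 0.36. Arg1 encodes arginase 1, which consumes arginine in alternatively activated macrophages. It was 14.01, 12.80, 17.94, 17.22 and 12.50 in small intestine, against 12.90 and 13.11 in liver, so that small intestine 3 and 4 alone were above both livers by a wide margin. The difference was 1.89 ± 1.39, and 0.09 without those 2 libraries. Mrc1, the mannose receptor, followed the same 2 libraries, at 6.50, 6.42, 9.43, 9.53 and 6.15 in small intestine against 5.92 and 5.93 in liver (adjusted p = 0.214). Vegfa, a growth factor for vessels, ran from 7.90 to 13.12 in small intestine against 11.98 and 13.44 in liver, and Retnla stayed near background in both organs. The list as a whole had 1 higher and 0 lower genes, near the share of 8.77% called higher over all genes, and a median difference of 0.14.

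Some homing receptors were lower in small intestine without passing the test. Itgb7 encodes the β7-integrin chain used by lymphocytes to enter the gut. It was 12.61, 13.16, 12.99, 12.29 and 14.16 in small intestine, against 14.22 and 14.27 in liver, so every small intestinal library was below both livers (difference -1.20 ± 0.57, adjusted p = 0.279). Ccr2, the receptor for Ccl2 and Ccl7, was 14.40, 12.55, 15.53, 15.38 and 12.93 in small intestine against 15.50 and 15.67 in liver. Small intestine 3 and 4 were close to the livers in Ccr2 and the other 3 libraries were lower. The difference was -1.43 ± 0.70 (adjusted p = 0.303), and without small intestine 3 and 4 it was -2.29 (adjusted p = 0.0283). Ccr7, which guides cells to lymph nodes, was higher in all small intestinal libraries, at 10.14 to 11.97 against 9.40 and 9.77 in liver, without passing (adjusted p = 0.391). Cx3cr1, the fractalkine receptor of mature gut macrophages, was low in both organs, at 5.89 to 7.79 in small intestine against 6.18 and 9.08 in liver. Ccr9, Cd44 and Itgax differed by 0.36, 0.26 and -0.17 and did not pass. Of the 4 chemokine receptors and the 4 adhesion genes 0 were called in either direction, with medians of -0.16 and -0.58. With 8.77% called over all genes, 0 calls among so few genes do not set them apart.

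Of 10 receptors and adaptors that sense microbes 0 passed, with a median of -0.01. Over all genes 8.77% were called, so 0 calls in a list of this size do not set it apart. Cd14, the co-receptor for lipopolysaccharide, was 16.64 to 17.35 in small intestine against 16.59 and 16.73 in liver. Trem1, which amplifies inflammatory signals in monocytes, and Trem2, a lipid receptor of macrophages, differed by 0.89 ± 0.84 and -0.58 ± 1.10. Card9, an adaptor for fungal sensing, was below both livers in every small intestinal library, at 13.19 to 13.99 against 14.25 and 14.27 (difference -0.71 ± 0.47, adjusted p = 0.534). The 9 transcription factors held 0 calls with limma, to be read against the same overall share, and a median of -0.12. The myeloid master regulator Spi1 had an interval from -0.85 to 0.61 and Stat6 one from -0.85 to 0.65. With Tgfb1 and Nfkb1 these were the 4 genes of 57 whose 95% confidence interval lay within 1 unit of 0, and 25 lay within 2 units. For the remaining genes the data do not show that the organs were alike. Of the antigen presentation genes, Cd80 and Cd86 differed by 0.47 and 0.24, and H2-Ab1, which encodes a chain of MHC class II, differed by 1.06 ± 1.66.

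H2-Ab1 belonged to a group of genes that varied more within an organ than between organs. It was 11.07, 9.35, 15.19, 15.99 and 14.93 in small intestine, against 9.51 and 14.99 in liver. Siglec1, a sialic acid receptor of mature macrophages, had 72.1, 103, 3521, 8189 and 63.6 normalised counts in small intestine, against 141 and 4287 in liver. Ly6c1, which encodes a Ly6C chain, was 15.82, 13.64, 9.53, 9.70 and 15.02 in small intestine, against 10.25 and 11.94 in liver. Monocytes of non-manipulated donors before transfer had 12.37 and 13.22 for Ly6c1, so small intestine 1, 2 and 5 exceeded them. Small intestine 3 and 4 were thus low in Ly6c1 and high in Siglec1, Mrc1 and Arg1. They were also the highest in H2-Ab1, but small intestine 5 at 14.93 was close to small intestine 3 at 15.19. In 17 of the 57 genes both small intestine 3 and 4 were above small intestine 1, 2 and 5, and in 9 both were below. Whether these counts exceed those of another pair of libraries was not tested. The genes above included 4 that bear on the results given here, Cxcl1, Ccl2, Ccl7 and Il23a, while Il6 was below. Small intestine 3 and 4 had also been deposited with a lane multiplier of 1.333, and their positive control probes averaged 267 and 247 counts, against 459 to 555 in the other 3. The part of this difference in the organ comparison was not tested beyond leaving both libraries out. Without them 5 genes passed, namely Cxcl1, Il10, Il6 and Ly6c1, which were higher in small intestine, and Ccr2, which was lower.

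Liver 2 stood apart from liver 1 in a comparable way. It was over 2 units higher in 11 of the 57 genes and over 2 units lower in 0. Among them were Cxcl9, Cxcl11, Siglec1 and H2-Ab1, whose levels or gap between livers are given above. Over the 57 genes, the root-mean-square distance between the 2 livers was 1.90, against a median of 1.76 for the 10 pairs of small intestinal libraries and of 1.95 for the 10 pairs of a small intestinal and a liver library. Distance between organs was therefore close to distance within organs over the whole panel. Small intestinal libraries lay farther from spleen and bone marrow of manipulated recipients, with medians of 3.04 and 2.99.

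**Figure D3:**
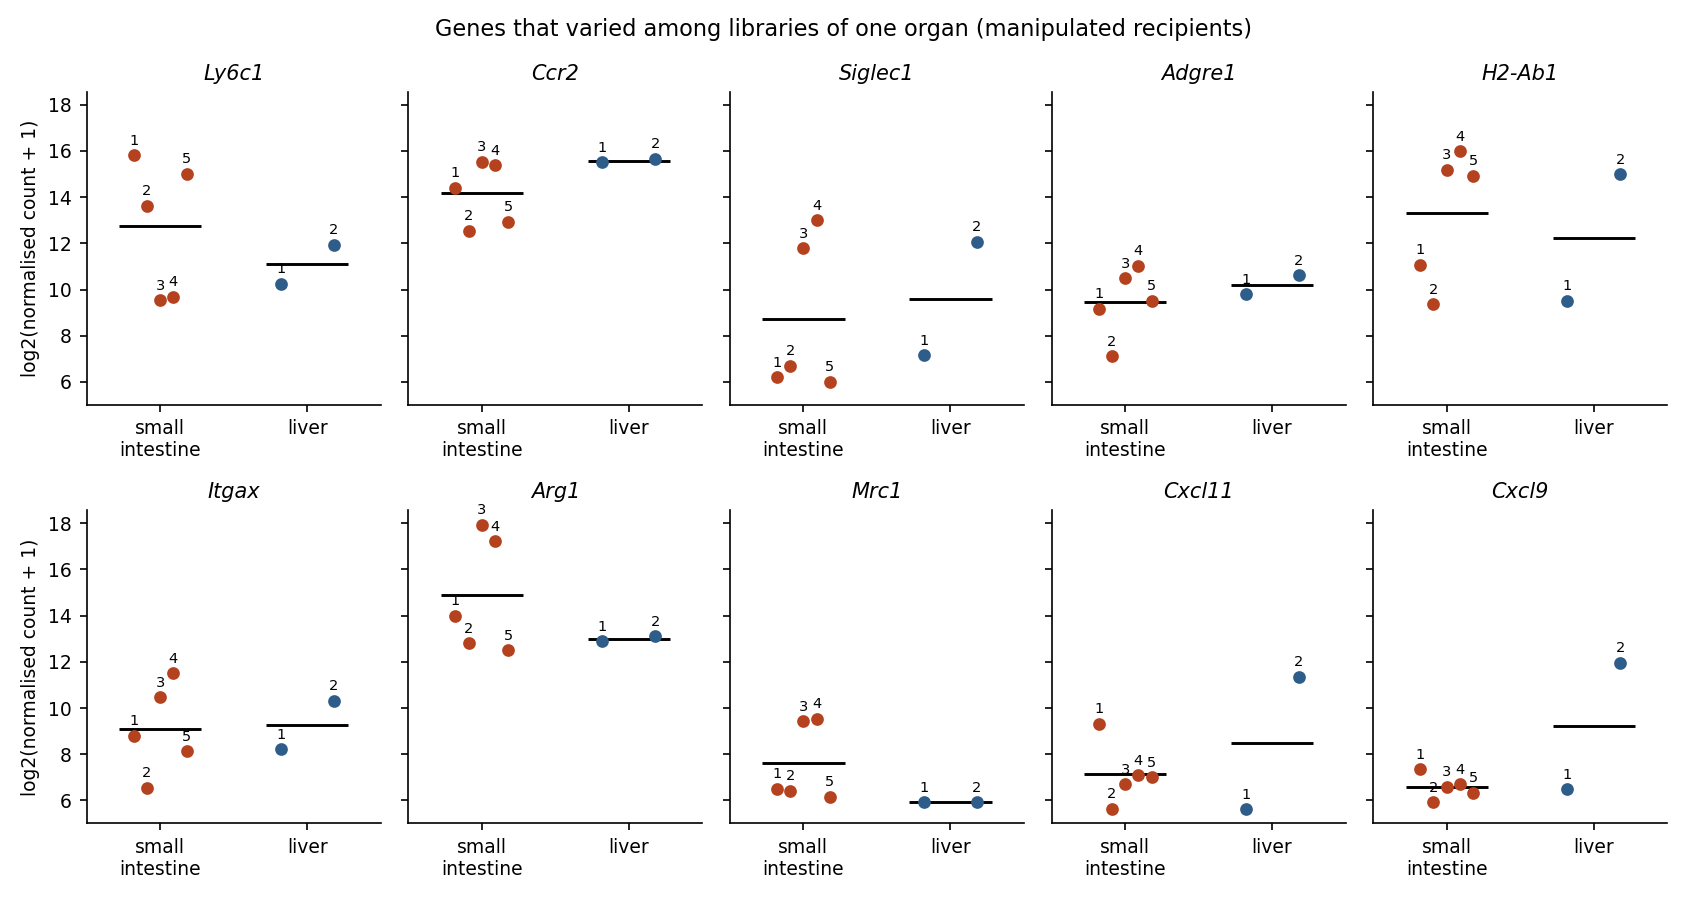
Level in each library of manipulated recipients, as log2 of the normalised count plus 1, for 10 genes that varied within organs, with library numbers beside the points and a line at the group mean. Small intestine 3 and 4 lie below the other small intestinal libraries in Ly6c1 and above them in Siglec1, Arg1 and Mrc1, and liver 2 lies above liver 1 in Siglec1, H2-Ab1, Cxcl11 and Cxcl9.

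In the monocyte and macrophage marker lists limma called 0 of 4 and 0 of 7 members, where 8.77% were called over all genes. DESeq2 called Ly6c1 of the monocyte markers and Mrc1 of the macrophage markers, both higher in small intestine, under both of its scalings. Their medians were -0.42 for monocyte markers (4 genes, among them Ly6c1, Ccr2 and Chil3) and -0.67 for macrophage markers, beside 0.06 over all genes. The summed normalised counts of the macrophage markers ranged from 28361 to 93184 in small intestine and from 56961 to 99180 in liver. Csf1r, the receptor for the macrophage growth factor, was 12.26 to 14.53 in small intestine against 14.47 and 14.55 in liver, and Adgre1, Cd68 and Fcgr1 differed by -0.75, -0.68 and -0.27. Of dendritic cell markers only Ccr7 had values, so a contribution of these cells was not tested.

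The same organs were then compared in non-manipulated recipients, to ask whether the contrast was already present without surgery. With limma 0% of the 57 genes passed in either direction, 2 had an unadjusted p under 0.05, and the smallest adjusted p was 0.344, for Chil3. The edgeR test called 1 gene, Retnla, and DESeq2 called 2, Arg1 and Ccl7. Retnla was 5.37, 5.26, 5.76 and 12.85 in small intestine 1 to 4, against 5.77, 5.71 and 5.29 in liver, so small intestine 4 alone was high. In 0% of genes were all small intestinal libraries above all livers, and in 1 gene (1.75%), Il1a, all small intestinal libraries were below all livers. Il1a was 13.28, 13.19, 13.52 and 13.05 in small intestine of non-manipulated recipients, against 14.56, 15.30 and 13.90 in their livers, whereas its small intestinal libraries were above both livers in manipulated recipients. The change in its organ difference was 3.73 and did not pass (adjusted p = 0.250), and neither organ difference passed.

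The change in the organ difference with surgery was tested directly as the difference in manipulated minus the difference in non-manipulated recipients. Cxcl1, Il10 and Il23a passed, all 3 in the higher direction (5.26%), with 0% lower and 11 genes at an unadjusted p under 0.05. For Cxcl1 the organ difference was 3.79 in manipulated and 0.49 in non-manipulated recipients, a change of 3.30 ± 0.76 (adjusted p = 0.00624). For Il10 it was 2.76 in manipulated and -0.75 in non-manipulated recipients, a change of 3.50 ± 0.71 (adjusted p = 0.00243). Both kept their call with each compared library left out. For Il23a it was 4.29 in manipulated and -1.18 in non-manipulated recipients, a change of 5.47 ± 1.45 (adjusted p = 0.0174). This call was lost with series matrix values, after background subtraction and in a fit of the compared groups only (adjusted p up to 0.0715). Non-manipulated liver 1 was high in Il23a, at 9.91 against 5.76 and 7.09 in the others, and without it the change was 4.31 (adjusted p = 0.0632). It was 6.38 without non-manipulated liver 2 and 6.16 without manipulated small intestine 5, and without manipulated liver 1 the adjusted p was 0.121. Among libraries deposited without a lane multiplier the change was 2.68 for Cxcl1, 4.42 for Il10 and 5.80 for Il23a, and among those with one it was 3.72, 2.27 and 4.76.

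Il6 and Ccl7 came close, with changes of 3.94 ± 1.30 and 6.96 ± 2.28 (adjusted p = 0.0660 for both). Ccl7 in non-manipulated livers was 5.63, 13.82 and 6.78, so a single library carried most of that group's spread. Ccl2 changed by 2.64 ± 1.11 (adjusted p = 0.164) and Arg1 by 4.51 ± 1.88 (adjusted p = 0.164). For Ccl2 the organ difference was 2.76 in manipulated and 0.12 in non-manipulated recipients, but their change was not past the threshold. All 5 pro-inflammatory cytokines had a change above 0, with a median of 3.73 beside -0.10 over all genes. In the 9 transcription factors and the 4 adhesion genes 0 changes were above 0, and none of them passed. The median change over all genes was itself below 0, and it moved by 0.33 when positive controls entered the scaling. The sign of small changes therefore depends on the scaling.

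**Figure D4:**
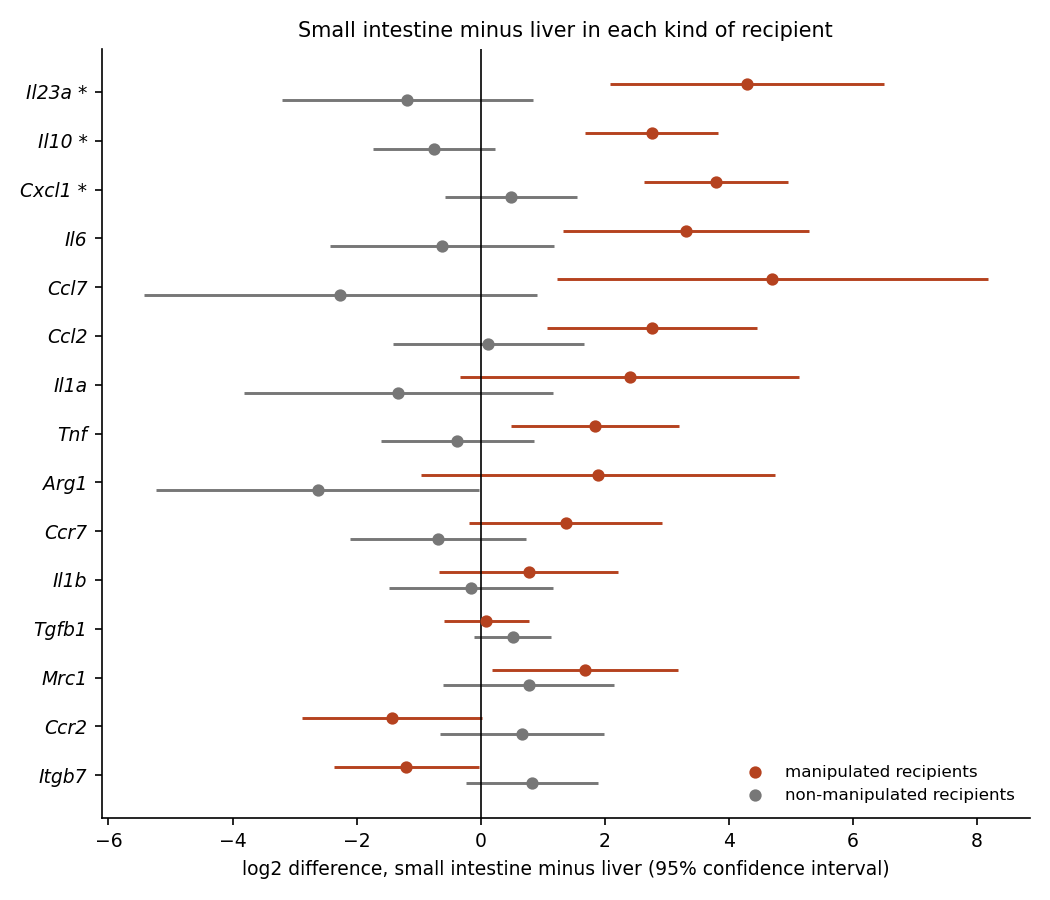
Small intestine minus liver on the log2 scale for 15 genes, in manipulated (red) and non-manipulated (grey) recipients, as fitted differences with 95% confidence intervals. An asterisk marks the 3 genes, Il23a, Il10 and Cxcl1, in which the difference itself changed with surgery at an adjusted p under 0.05.

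Across the 8 combinations of organ and recipient, all 5 genes past the threshold had their highest mean in the manipulated small intestine. Cxcl1 averaged 11.76 ± 0.63 there (SD, n = 5), against 7.97 ± 0.71 in manipulated liver (n = 2), and 7.23 ± 0.12 in spleen and 7.23 ± 0.33 in bone marrow of manipulated recipients (n = 3 each). In non-manipulated recipients it averaged 8.03 ± 0.56 in small intestine (n = 4) and 7.54 ± 0.09 in liver (n = 3). The other 7 of these groups thus had means from 7.23 to 8.03. Small intestine of non-manipulated recipients given monocytes of operated donors was not among the 8 combinations. There Cxcl1 was 10.78 in library 1, below every library of manipulated small intestine, and 7.81 to 8.34 in the others. Library 1 also had 11.04 for Il6 and 10.84 for Il23a, within the range of manipulated small intestine. The others of that group had 5.40 to 6.06 for Il6 and 6.19 to 8.65 for Il23a. Il10 averaged 13.83 ± 0.35 in manipulated small intestine and 11.08 ± 0.19 in manipulated liver, whereas in non-manipulated recipients small intestine and liver overlapped, at 11.96 ± 0.45 and 12.70 ± 1.00. Il6 averaged 10.84 ± 1.19 in manipulated small intestine and 7.52 ± 0.63 in manipulated liver, and 6.20 ± 0.05 in small intestine and 6.83 ± 0.79 in liver of non-manipulated recipients. Spleen and bone marrow, which share the same small intestinal libraries in any contrast with them, had 4.96 ± 0.35 and 4.99 ± 0.28 for Il6 in manipulated recipients. Il1a was higher in small intestine and liver of manipulated recipients than in their spleen, with means of 17.18 ± 0.18 in small intestine and 14.77 ± 0.06 in liver, against 10.97 ± 0.91 in spleen. Small intestine minus spleen was 6.20 for Il1a (limma adjusted p = 0.000107), and liver against spleen was not tested.

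**Figure D5:**
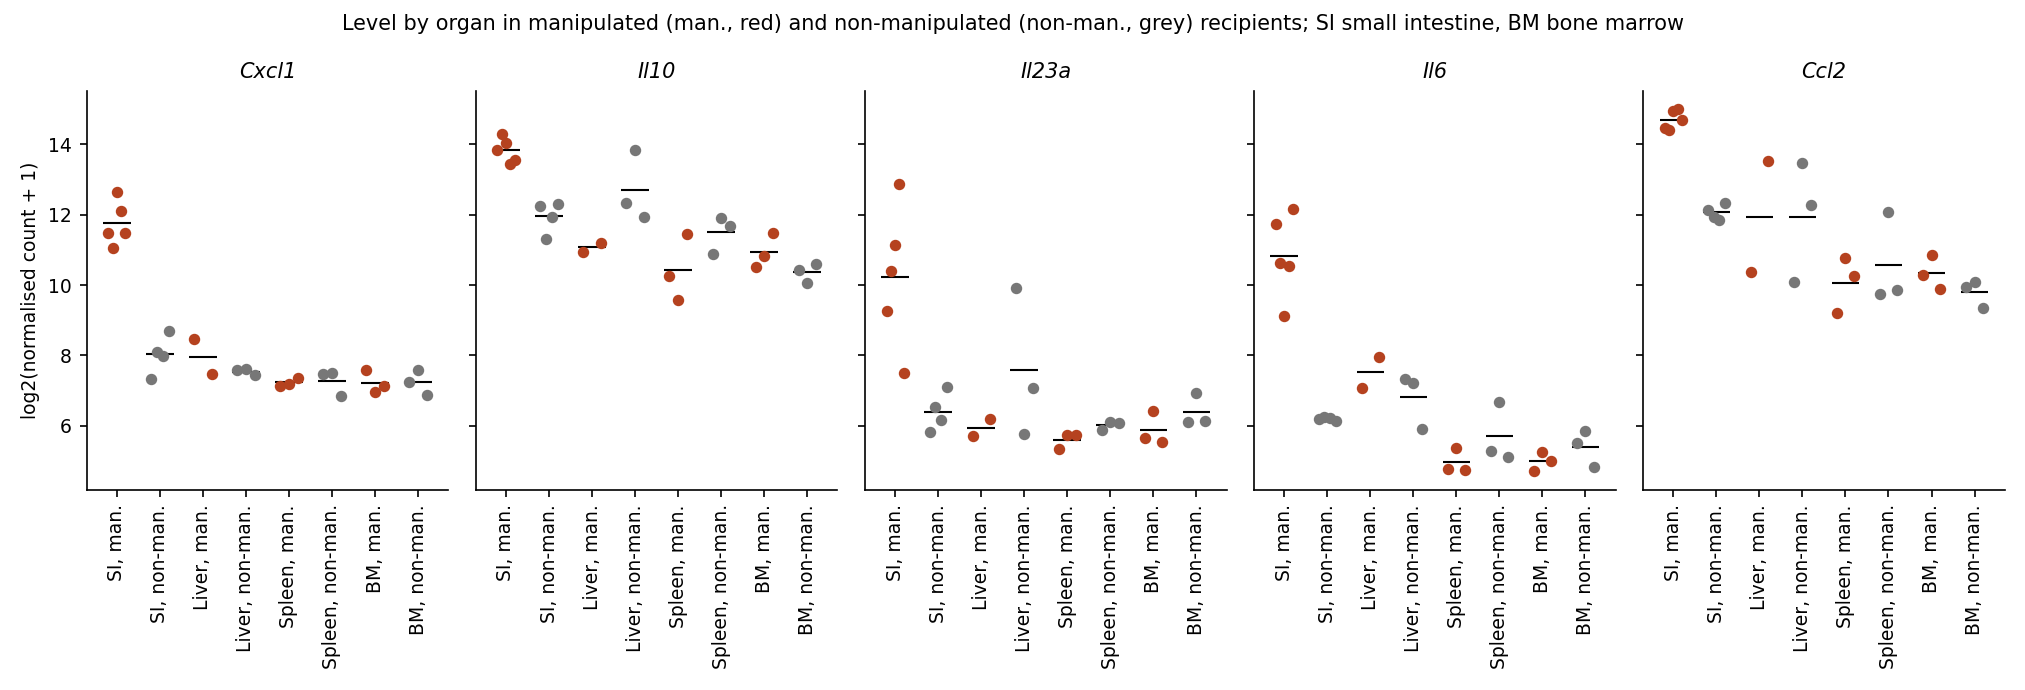
Level of the 5 genes past the threshold by organ, as log2 of the normalised count plus 1, with 1 point per library, a line at the group mean, manipulated recipients in red and non-manipulated recipients in grey. In Cxcl1, Il6 and Ccl2 all libraries of manipulated small intestine lie above every library of the other 7 groups shown, while in Il10 non-manipulated liver reaches their range.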

How the data were processed

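RNA of sorted cells was reverse-transcribed and amplified with gene-specific primers before nCounter hybridisation, per the study's methods. Barcode counts as deposited were unscaled in 15 of 33 libraries. For the other 18 the authors deposited a signal, namely counts times a constant per lane, for a reason not given in the sources used here. Division by the constant gave whole numbers (tolerance 0.002) for 100% of 1086 values. The deposited series matrix is a score, these values times 1 factor per lane, and served as an alternative. Of 67 panel genes, 57 had values in every library. Recovered counts were scaled by Actb, Gapdh and Rpl19, and log2 values with a pseudocount of 1 were fitted with limma 3.58.1 (R 4.3.3) with a mean for each of 11 groups. All 57 entered the fit and the counts, and 2 of them are not reported here by name. The filter (mean plus 2 SD of the negative controls, in at least 2 libraries) removed 0 genes. On simulated data for the comparison of manipulated organs with 57 genes, 51.7% of 4-fold and 86.7% of 16-fold changes were recovered, and 7.57% of calls were false. The simulation gave each gene the same SD in all 11 groups. Measured SDs differed between groups, as in Il1a, so these rates may not hold for the data. Alternatives used edgeR 4.0.16, DESeq2 1.42.0, other scalings and left-out libraries. Members and gene lists were chosen with earlier results of these data known. Full values were given for genes past the threshold, up to 3 further genes per list, and a preset group of genes. A list of 6 genes named by the study for the inflamed gut, chosen on these samples and so no independent evidence, held 3 higher and 0 lower genes. Over all genes 8.77% were called higher. Within a group the labels give each library its own mouse number, without tying organs to an animal. The p-values thus measure the spread between libraries, in which animals and technical variation cannot be told apart. The study states that its data were pooled from independent experiments, which the labels do not identify.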

Additional observations from a re-analysis of the deposited data

Results flagged for a closer look

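The difference between small intestine and liver itself differed between manipulated and non-manipulated recipients, by a limma test of the difference, in Cxcl1 (3.30), Il10 (3.50) and Il23a (5.47, all log2). In 4 of 62 sets of levels examined, a single library lay far from the rest of its group, where chance alone marks about 5%. Small intestine 1 of manipulated recipients had 8.35 for Ccr9, against 7.01 to 7.36 in the others. Small intestine 2 had 17.35 for Cd14 (others 16.64 to 16.84), 12.26 for Csf1r (others 14.01 to 14.53) and 5.46 for Tlr2 (others 7.03 to 7.48).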

How the results depend on the processing

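In manipulated recipients, 5 genes passed with the fit as reported. The count was 3 after scaling by total count, 2 with the series matrix values, 3 with edgeR under either scaling, 10 with DESeq2 under either scaling and 12 with the methods' t-test unadjusted (4 after Benjamini-Hochberg). It ranged from 2 to 5 with each library left out, being 2 without liver 1 and 3 without small intestine 5. In non-manipulated recipients 0 passed, against 1 with edgeR under either scaling, 2 with DESeq2 under either scaling and 2 with the methods' t-test unadjusted, and 0 to 1 with each library left out, being 1 without liver 3. For the change between the 2 kinds of recipient, 3 passed, against 5 with edgeR under either scaling, 7 and 9 with DESeq2 under house-keeping and its own factors, 5 with manipulated and non-manipulated recipients alone, 6 with a replicate block and 5 without small intestine 3 and 4. Leaving out each library gave 2 to 7, being 2 without manipulated liver 1, 6 without manipulated liver 2 and 7 without non-manipulated liver 3. The cause was not tested. The block rests on a shared mouse number only, since same-numbered organs correlated at 0.164 and -0.483 in manipulated recipients, where values of the 2 livers mirror each other by construction, and at -0.0839, 0.311 and 0.384 in non-manipulated recipients. In the manipulated comparison the block left 4 genes. Cxcl1 and Il10 passed in both comparisons under every alternative run, and 0 of the gene values in either comparison changed sign while past the threshold. Ccl2 failed under total count, series matrix values, both edgeR fits and 5 further settings, beside left-out libraries. Il6 failed under 7 (total count, series matrix values, background subtraction, both edgeR fits, the methods' t-test and a fit of the compared groups only), with an adjusted p of up to 0.253. Il23a failed with series matrix values, the methods' t-test and the compared groups only (up to 0.208), and without small intestine 3 and 4. Its change between recipients failed with series matrix values, background subtraction and the compared groups only. The median difference over all genes moved by -0.20 with TMM factors, -0.39 with total count, -0.45 with series matrix values and 0.14 with positive controls. Lower levels of Itgb7 and Ccr2 are to be read against those shifts. With 2 livers, small differences could not be resolved.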
